A study of Mus musculus with 12 samples.

Results

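miR-103 and miR-107 (mmu-miR-103 and mmu-miR-107 on the array) are nearly identical microRNAs (miRNAs, short RNAs that guide the repression of messenger RNAs) that lie inside genes of pantothenate kinase, the enzyme that starts the synthesis of coenzyme A. Both were taken by name from the mouse miRNAs on the array, which makes 2 of 611. They were followed in 3T3-L1 cells, a mouse embryonic fibroblast line used as a culture model of fat cell formation, on 12 single-colour arrays in 4 groups of 3. Preadipocytes are the starting cells, grown with no treatment named for them. MDI cells, labelled as mature adipocytes, which stand for suppressed WNT signalling in the study's design, had been grown to confluence. They received a differentiation medium of 3-isobutyl-1-methylxanthine, dexamethasone and insulin for 3 days, insulin alone for 2 days and plain medium for 2 days, up to day 7. Lithium cells are preadipocytes given lithium chloride (LiCl) at 25 mM, the study's model of activated WNT signalling, and lithium plus MDI cells were given the differentiation medium as well, to see whether they could still become fat cells. The labels give an end day for the MDI cells only, so time in culture may differ between groups along with treatment, and they name neither separate cultures nor a measure of differentiation. The p-values of group differences therefore set a difference only against the scatter between these arrays, and that scatter may be technical. All samples come from 1 cell line, and in such bulk RNA a change in how many cells make a miRNA cannot be told apart from a change in its amount per cell.

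Both miRNAs load into the Argonaute proteins and pair with messenger RNAs mainly through the seed, bases 2 to 8 from the 5′ end. In mouse liver and fat, raising them is known to impair insulin sensitivity, and caveolin-1, a membrane protein that steadies the insulin receptor, is a known target. They are processed from the introns of their host genes, and the host gene's own activity is one known source of the miRNA. No messenger RNA was measured here, so neither host genes nor targets have a value.

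The mature sequences, from RefSeq (GRCm38.p6), are shown because their likeness limits what an array can separate, with the seed in capitals.
miR-103: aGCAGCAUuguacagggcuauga
miR-107: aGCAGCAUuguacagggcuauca
The array's names match miR-103-3p and miR-107-3p of that table. Counted from the 5′ end, they differ by G22C (miR-103 first) and share 22 of 23 bases, the whole seed among them. Of 1679 mature mouse miRNAs in the table, these 2 were the only ones with the seed GCAGCAU. The sequences of the array's probes were not used here, so how far a probe for one miRNA also reads the other is unknown, and that share cannot be told apart from a shared change in level.

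miR-103 is made from 2 loci with the same mature sequence, which an array cannot tell apart, and miR-107 from 1. Mir103-1 lies at chr11:35782396-35782481 (plus strand) within the span of Pank3 (chr11:35769495-35791285). Mir103-2 lies at chr2:131288052-131288137 (plus strand) within that of Pank2 (chr2:131262008-131299188). Mir107 lies at chr19:34820687-34820773 (minus strand) within that of Pank1 (chr19:34806935-34883423). Each is on its host's strand, on GRCm38.p6. The hairpins are shown, with the mature miRNA in capitals, since the loops and outer ends differ between loci while the opposite arms are nearly alike. The product is the same for both Mir103 loci and differs at base 22 in Mir107.
Mir103-1: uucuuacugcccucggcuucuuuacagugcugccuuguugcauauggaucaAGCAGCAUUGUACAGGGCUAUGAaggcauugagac
Mir103-2: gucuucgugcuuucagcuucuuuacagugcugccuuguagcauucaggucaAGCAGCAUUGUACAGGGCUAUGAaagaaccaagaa
Mir107: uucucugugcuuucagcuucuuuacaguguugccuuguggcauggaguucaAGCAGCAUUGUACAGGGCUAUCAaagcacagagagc
Because lithium stands for activated WNT signalling here, the host promoters (250 bases before to 50 after the start) were searched for the core of the TCF/LEF motif, CTTTGAT on either strand. It was in 0 of the 6 windows of Pank1, Pank2 and Pank3 and in 3.73% of all 32851 windows. With so rare a motif and so few windows, the 0 cannot tell these promoters from others.

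Each miRNA was read by 2 probes of 10 spots, a brighter and a dimmer one, and levels are given as log2 of the brighter probe's intensity after dividing by the array's 75th percentile. A value of 0 is thus that percentile on the same array. After outlier spots were left out, 7 to 10 spots per probe remained, all well above background on all 12 arrays and none saturated. The coefficient of variation between spots was 1.25% to 6.57% over the 4 probes, which covers technical error within an array only. Over the series, 126 to 175 miRNAs were detected per array and 157 were tested. Of 7 mesenchymal marker miRNAs, 7 were detected, while of 18 markers of liver, blood, muscle, epithelium, nerve and endothelium only miR-205 and miR-128 were seen on any array. Preadipocyte array 3, lithium array 1 and lithium plus MDI array 3 correlated worst with their own groups over the tested miRNAs, among them miR-103 and miR-107 (mean r 0.939, 0.942 and 0.924). These arrays stood apart. They were closer to the lithium (0.957), MDI (0.960) and preadipocyte arrays (0.965), and 6 of 12 arrays in all lay closer to another group. Of these 3, lithium array 1 had the highest mean r with its own group. Single miRNAs went both ways for it. For miR-466f-3p it lay near the other lithium arrays, whose group mean was -2.74 ± 0.12 (SD, n = 3). The means there were -4.25 in MDI cells and -4.75 in preadipocytes. For miR-103 and miR-107 it lay far from the other lithium arrays. Whether its label is right was not tested, and lithium results are given with and without it. Slide 1 held the preadipocyte arrays and MDI array 1, and slide 2 held the other 8. Preadipocytes can therefore be set against lithium or lithium plus MDI cells only across slides.

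Both miRNAs were highest on 2 of the 3 lithium arrays and lowest on the MDI arrays and lithium array 1. miR-103 (mmu-miR-103) read 0.75, 0.71 and 0.52 on preadipocyte arrays 1 to 3, a mean of 0.66 ± 0.13 (SD, n = 3). On the MDI arrays it read 0.12, -0.41 and -0.50, a mean of -0.26 ± 0.33. The 2 groups did not overlap. In lithium cells it read -0.58, 1.92 and 1.53, a mean of 0.96 ± 1.35. Lithium array 1 was thus the lowest of all 12 arrays, and lithium arrays 2 and 3 were the highest. In lithium plus MDI cells it read 0.12, 0.15 and 0.44, a mean of 0.24 ± 0.17, between preadipocytes and MDI cells.

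miR-107 (mmu-miR-107) had the same order of groups. It read 0.16, 0 and -0.24 on the preadipocyte arrays (mean -0.03 ± 0.20, SD, n = 3) and -0.43, -0.62 and -0.86 on the MDI arrays (mean -0.64 ± 0.22). It read -0.70, 1.35 and 1.06 on the lithium arrays (mean 0.57 ± 1.11). The split within the lithium group is the same as for miR-103, though here MDI array 3 was the lowest array. Lithium plus MDI cells read -0.22, -0.24 and 0.05 (mean -0.14 ± 0.16), overlapping the preadipocytes and lying above all 3 MDI arrays. For both miRNAs the means ran from lithium through preadipocytes and lithium plus MDI to MDI. No group comparison tested here passed the threshold for either miRNA with all 12 arrays, and lithium was not tested against MDI.

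**Figure D1:**
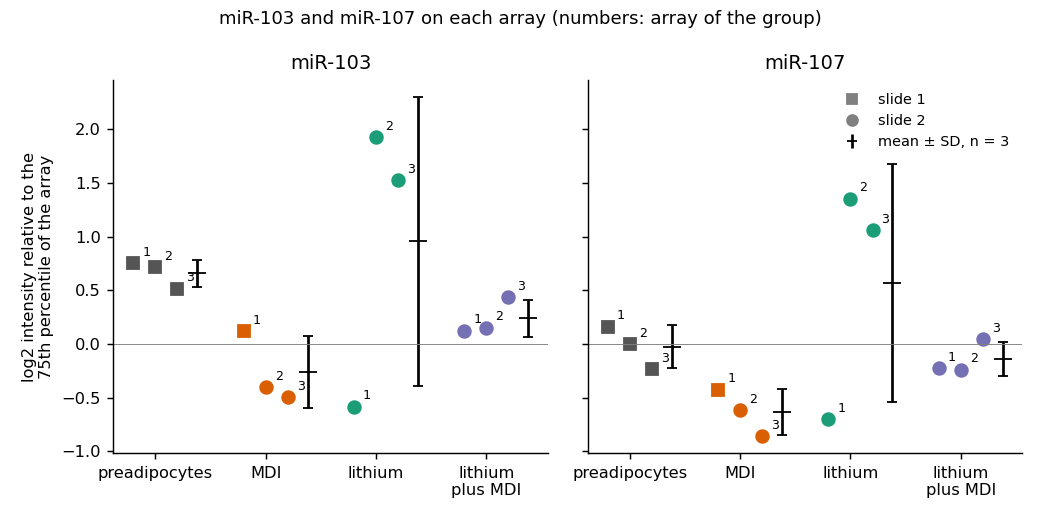
Level of miR-103 (left) and miR-107 (right) on each array, as log2 of the brighter probe's intensity relative to the array's 75th percentile; numbers give the array within its group, squares are slide 1, circles slide 2, and black bars are mean ± SD (n = 3). Lithium arrays 2 and 3 lie above all others for both miRNAs, while lithium array 1 lies below all 3 MDI arrays for miR-103 and among them for miR-107.

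The split within the lithium group was as plain in the unscaled intensities. The brighter miR-103 probe had a background-subtracted intensity of 211 on lithium array 1, 1556 on array 2 and 1192 on array 3, while the 75th percentiles of these arrays were 316, 410 and 414. The brighter miR-107 probe read 195, 1048 and 861 on the same arrays. On the preadipocyte arrays miR-103 read 845, 944 and 1115 against percentiles of 503, 576 and 780. The 75th percentile was thus highest on the 3 preadipocyte arrays, while the median intensity of their mouse spots, also background-subtracted (-0.58, -0.58 and 0.30), lay below those of the 8 arrays of slide 2 (0.42 to 1.89). Scaling bears on every difference from preadipocytes. In MDI cells miR-103 read 288, 288 and 243, against percentiles of 264, 382 and 343. In lithium plus MDI cells it read 289, 440 and 646, against 265, 397 and 477. In the authors' deposited table, on a log2 scale of its own, the lithium arrays showed the same split, with 8.14, 10.82 and 10.29 for miR-103 and 7.95, 10.00 and 9.43 for miR-107.

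**Figure D2:**
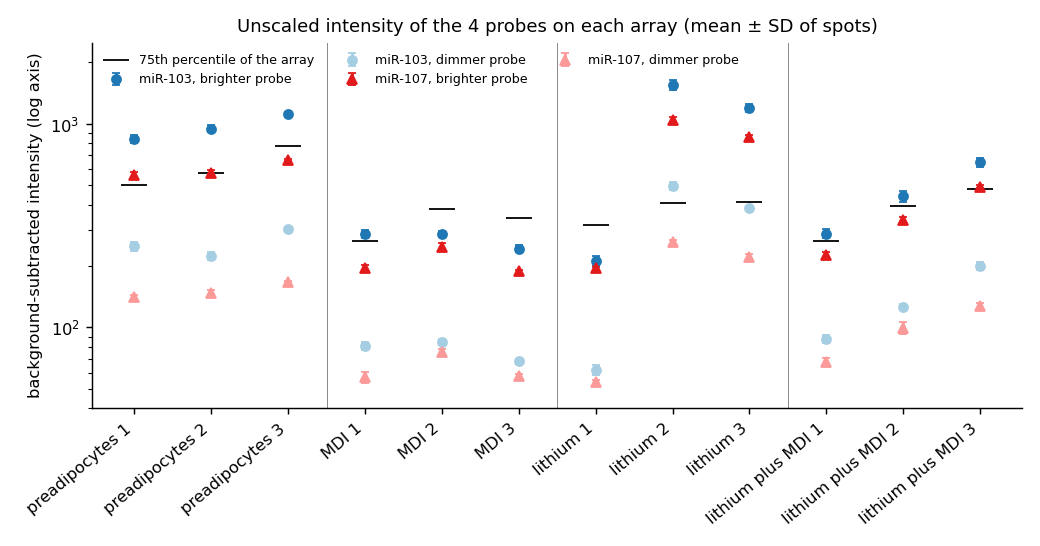
Background-subtracted intensity (log axis) of the brighter and dimmer probe of miR-103 and miR-107 on each of the 12 arrays, before scaling; points are the mean of the kept spots, bars their SD, and black dashes the array's 75th percentile. All 4 probes are high on lithium arrays 2 and 3 and low on lithium array 1.

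In MDI cells, set against preadipocytes to ask what induction does, both miRNAs had lower means, and neither difference passed the test. miR-103 lay at a log2 difference of -0.92 (SE 0.49, 95% interval -1.98 to 0.14), or 1.89-fold lower, with a limma adjusted p of 0.320. miR-107 lay at -0.61 (SE 0.42, interval -1.52 to 0.30), or 1.53-fold lower, with an adjusted p of 0.428. All 3 MDI arrays lay below all 3 preadipocyte arrays for both miRNAs, as the groups did not overlap for 26.8% of the 157 tested miRNAs. The test called 0 of the 2, against 3.18% of all tested miRNAs (1.91% lower), whose median difference was 0.10. With the slide as a block, which leaves MDI array 1 as the only array that links the groups within a slide, the differences were -0.54 for miR-103 and -0.40 for miR-107 (adjusted p 0.804 and 0.833). Lithium array 1 enters these differences only through the shared spread, and without it their intervals no longer reached 0 (-1.46 to -0.38 and -1.12 to -0.10), while the adjusted p of 0.0582 and 0.148 missed the threshold. With the 3 arrays that stood apart left out, miR-103 fell by 0.99 (limma adjusted p = 0.0135) and miR-107 by 0.72 (0.0269), with SEs of 0.23 and 0.20. This setting was added after seeing the data and drops the arrays least like their own groups, so a smaller spread was built in. The share of all tested miRNAs that passed in it is not given here. Over the other settings that count ran from 0 to 62.

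Lithium treatment of preadipocytes gave differences that turned on single lithium arrays, above all on array 1. That array was among those that stood apart, and it read lowest of the lithium arrays for both miRNAs. A fit without it thus leaves out the lithium array that went against a rise. With all 12 arrays miR-103 lay 0.30 higher on the log2 scale than in preadipocytes (SE 0.49, 95% interval -0.76 to 1.36, limma adjusted p = 0.724) and miR-107 lay 0.60 higher (SE 0.42, interval -0.31 to 1.51, adjusted p = 0.384). Both differences turned negative with the arrays unscaled or scaled over all mouse probes, where the medians of all tested miRNAs were -0.69 and -0.90. Relative to those medians miR-103 lay at 0.30 and miR-107 at 0.60 in both settings, against 0.36 and 0.66 in the main setting. The groups overlapped for both miRNAs, and did not overlap for 29.9% of those tested. The test called 0 of the 2, where 6.37% of all tested miRNAs were called (5.1% higher). Without lithium array 1, miR-103 rose by 1.07 (SE 0.28, interval 0.46 to 1.67, 2.09-fold, adjusted p = 0.0260) and miR-107 by 1.23 (SE 0.26, interval 0.66 to 1.80, 2.35-fold, adjusted p = 0.0145). Both were then among the 16.6% of tested miRNAs called, 9.55% higher and 7.01% lower. Lithium arrays 2 and 3 each lay above all 3 preadipocyte arrays for both miRNAs. Without lithium array 2, by contrast, miR-103 lay at -0.19 (adjusted p = 0.887) and miR-107 at 0.20 (0.861), and without lithium array 3 they lay at 0.01 and 0.35 (0.995 and 0.747). Slide and group cannot be told apart in this comparison. A slide block, which links these groups only through the MDI arrays, gave 0.87 for miR-103 and 0.91 for miR-107. Their 95% intervals were -1.15 to 2.89 and -0.83 to 2.65.

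After MDI induction of lithium-treated cells, both miRNAs had lower means than in lithium alone, and the call again turned on lithium array 1. With all arrays the log2 difference was -0.72 for miR-103 (SE 0.49, 95% interval -1.78 to 0.34, 1.65-fold, limma adjusted p = 0.312) and -0.71 for miR-107 (SE 0.42, interval -1.62 to 0.20, 1.64-fold, adjusted p = 0.253). limma called 0% of all tested miRNAs here, while 48 had an unadjusted p under 0.05, and the median difference of those tested was 0.39. The groups overlapped for both miRNAs, and did not overlap for 33.8% of those tested. Without lithium array 1, miR-103 fell by 1.49 (SE 0.28, interval -2.09 to -0.89, 2.81-fold) and miR-107 by 1.35 (SE 0.26, interval -1.91 to -0.78, 2.54-fold), both at an adjusted p of 0.00991. Without lithium array 2 the differences were -0.23 and -0.32 (adjusted p 0.806 and 0.670), and without array 3 they were -0.43 and -0.47 (0.664 and 0.6). In the fit without lithium array 1, 20.4% of tested miRNAs were called, 7.01% lower and 13.4% higher. All 6 arrays of the 2 groups are on slide 2, so the slide does not enter these differences, and a fit of slide 2 alone gave adjusted p-values of 0.387 and 0.308 with all 3 lithium arrays. This comparison and the last share the lithium arrays, so they are not separate evidence.

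The means of lithium plus MDI cells lay between those of preadipocytes and MDI cells for both miRNAs, with no slide block in the fit. Against MDI alone, which asks what lithium adds to induction, miR-103 lay 0.50 higher on the log2 scale (SE 0.49, 95% interval -0.56 to 1.56, limma adjusted p = 0.821) and miR-107 also 0.50 higher (SE 0.42, interval -0.41 to 1.41, adjusted p = 0.783). The groups did not overlap for either miRNA, nor for 12.1% of all tested miRNAs, but for miR-103 lithium plus MDI array 1 and MDI array 1 both rounded to 0.12. Here limma called 0% of all tested miRNAs, with 6 at an unadjusted p under 0.05. Against preadipocytes, miR-103 lay at -0.42 (interval -1.48 to 0.64, adjusted p = 0.603) and miR-107 at -0.11 (interval -1.02 to 0.80, adjusted p = 0.928), where 1.27% of tested miRNAs were called. With the slide as a block these differences were 0.15 (interval -1.87 to 2.17) and 0.20 (interval -1.54 to 1.94), with limma adjusted p of 0.941 and 0.918. Lithium plus MDI cells and preadipocytes share no slide. That fit links them only through the MDI arrays, of which array 1 alone is on slide 1, so its change of sign cannot be read as a correction. With all mouse probes as the base of the percentile miR-103 fell by 1.47 (limma adjusted p = 0.0461). In that last setting the median of all tested miRNAs was -0.65, and miR-103 lay at -0.82 relative to it. The groups did not overlap for miR-103 and 17.8% of all tested miRNAs, and overlapped for miR-107.

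Whether MDI acted differently with and without lithium was tested as an interaction. It was 0.20 for miR-103 (SE 0.70, 95% interval -1.30 to 1.70, limma adjusted p = 0.866) and -0.10 for miR-107 (SE 0.60, interval -1.39 to 1.19, adjusted p = 0.928). limma called 0% of tested miRNAs here, with 35 at an unadjusted p under 0.05. The MDI difference was thus negative both without and with lithium for each miRNA, and these intervals leave room for differences of more than 1 in either direction. Without lithium array 1 the interaction was -0.57 for miR-103 and -0.74 for miR-107 (adjusted p 0.340 and 0.198).

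**Figure D3:**
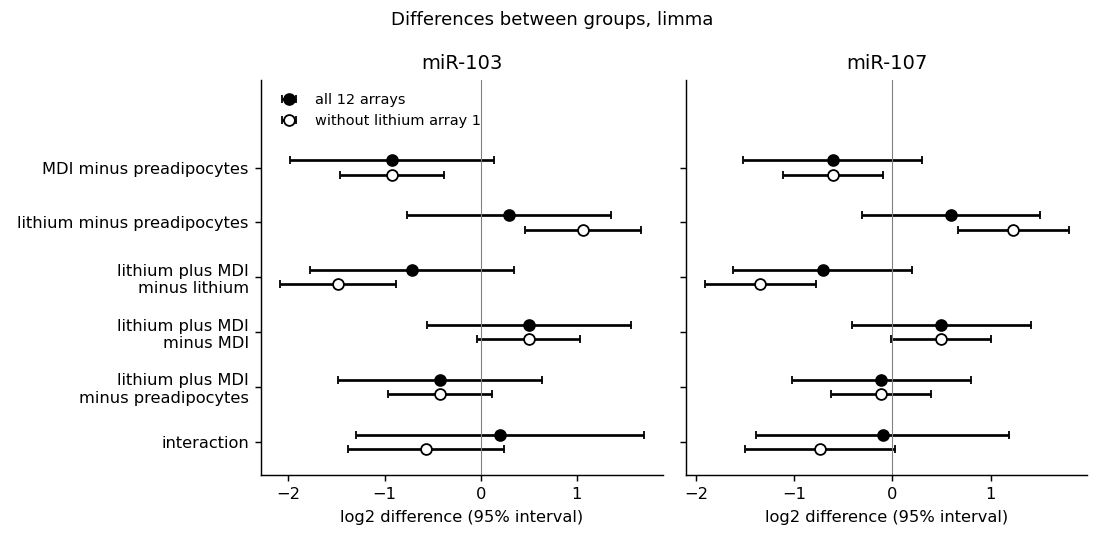
Log2 differences between groups for miR-103 (left) and miR-107 (right) from limma, with 95% intervals, for all 12 arrays (filled) and without lithium array 1 (open). Without that array the intervals of MDI minus preadipocytes, lithium minus preadipocytes and lithium plus MDI minus lithium no longer reach 0 for either miRNA, and the adjusted p passes in the last 2 of these.

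The pair moved together from array to array. Over the 12 arrays Pearson's r was 0.974 (permutation p = 0.00001, the smallest that 100000 resamples can give) and Spearman's rho 0.944 (permutation p = 0.00002). Without lithium arrays 2 and 3, the pair farthest from the median of miR-103, r was 0.941 over 10 arrays (permutation p = 0.00017), and within slide 2 it was 0.996 over 8 arrays (permutation p = 0.00023). Slide 1 holds 4 arrays, and no correlation was computed over so few. Both values on an array share its RNA, its labelling and its scaling factor, and the probes may share target as described above. On unscaled intensities r was 0.990.

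The spacing between miR-103 and miR-107 was widest on the preadipocyte arrays. The log2 difference of miR-103 minus miR-107 within an array was 0.59, 0.71 and 0.75 on the preadipocyte arrays. It was 0.55, 0.21 and 0.37 on the MDI arrays, 0.12, 0.57 and 0.47 on the lithium arrays and 0.35, 0.39 and 0.39 on the lithium plus MDI arrays. Preadipocytes lay above every other array, and the group means were 0.69, 0.37, 0.39 and 0.38. The groups did not differ past the threshold in an exact permutation test of the F statistic over all 15400 ways to split the arrays (F = 3.00, p = 0.112). The p was 0.0303 without lithium array 1, and with the authors' deposited table it was 0.699. Against preadipocytes the value differed by -0.31 with MDI, by -0.30 with lithium and by -0.31 with both (exact permutation p = 0.1 each, the smallest that 3 against 3 arrays allow, and 0.167 adjusted over 5 pairs).

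The slide moved with this measure. The 4 arrays of slide 1 lay between 0.55 and 0.75 and the 8 of slide 2 between 0.12 and 0.57. MDI array 1, on slide 1, read 0.55, above the 0.21 and 0.37 of the MDI arrays on slide 2. Among the arrays of slide 2 alone the 3 groups gave F = 0.26 (exact permutation p = 0.782). Slide and preadipocyte group cannot be told apart here.

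**Figure D4:**
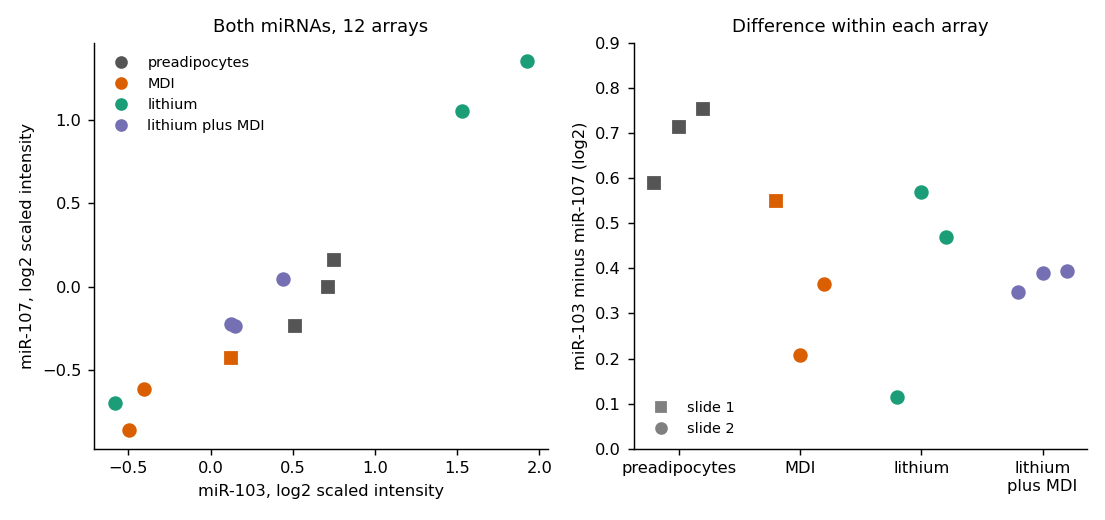
Left, miR-107 against miR-103 on the 12 arrays (log2 scaled intensity), coloured by group; right, the within-array difference of the 2 by group. Squares are slide 1 and circles slide 2. The pair runs along a common line, and the within-array difference is highest on the 3 preadipocyte arrays and next on lithium array 2 and MDI array 1.

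The dimmer probes gave differences of the same sign as the brighter ones in the 5 group comparisons, except for miR-107 in lithium plus MDI minus preadipocytes, where the brighter probe lay at -0.11 and the dimmer at 0.05. Over 12 arrays the probes of miR-103 correlated at r = 0.990 and those of miR-107 also at 0.990. After MDI the dimmer probes lay at -0.82 for miR-103 and -0.37 for miR-107, the latter smaller than the -0.61 of the brighter probe. Under lithium they lay 0.51 and 0.64 higher than in preadipocytes. In lithium plus MDI against lithium they lay at -0.77 and -0.59, and in lithium plus MDI against MDI 0.57 and 0.42 higher.

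The wider group around miR-15 and miR-107 shares the bases AGCAGC near the 5′ end, but with a shifted seed: AGCAGC starts at base 1 of miR-103 and miR-107 and at base 2 of the other 7. Their mature sequences, again from RefSeq with the seed in capitals, are shown for that shift.
miR-15a: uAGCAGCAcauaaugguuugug
miR-15b: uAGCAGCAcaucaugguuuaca
miR-16: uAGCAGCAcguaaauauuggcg
miR-195: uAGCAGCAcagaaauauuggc
miR-322: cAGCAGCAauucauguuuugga
miR-497: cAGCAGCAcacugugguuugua
miR-503: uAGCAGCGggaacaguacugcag
These miRNAs are known as brakes on the cell cycle that act on cyclins. All 7 were tested. limma called none of the 7 in the 5 group comparisons or the interaction with all arrays. After MDI 6 of the 7 had a positive difference, with a median of 0.09 against 0.10 for all tested miRNAs, and values ran from -0.30 for miR-497 to 0.54 for miR-15b. miR-103 at -0.92 and miR-107 at -0.61 lay below all of them, which was not tested as a difference.

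Under lithium 6 of the 7 again had positive differences from preadipocytes, with a median of 0.52 against -0.07 for all tested miRNAs. The highest was that of miR-322, at 1.31 (SE 0.72, limma adjusted p = 0.298), and miR-15b was the negative one at -0.20. miR-322 read -1.28, -0.94 and 2.05 on the preadipocyte arrays and 1.03, 1.26 and 1.47 on the lithium arrays. Preadipocyte array 3 was thus above all lithium arrays, while lithium array 1, low for miR-103 and miR-107, was near its group for miR-322. In lithium plus MDI against lithium, miR-322 lay at -1.22 and its cluster neighbour miR-503, at the floor on several arrays, at -1.19 (adjusted p 0.253 and 0.181), while miR-15b lay at 0.84 (0.135) and the median was -0.19 against 0.39. Without lithium array 1, miR-15b was the 1 of 7 past the threshold there, as it rose by 1.12 (SE 0.34, adjusted p = 0.0422), opposite in direction to miR-103 and miR-107. In that fit 20.4% of all tested miRNAs were called and 13.4% were called higher, so 1 of 7 is near the background.

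**Figure D5:**
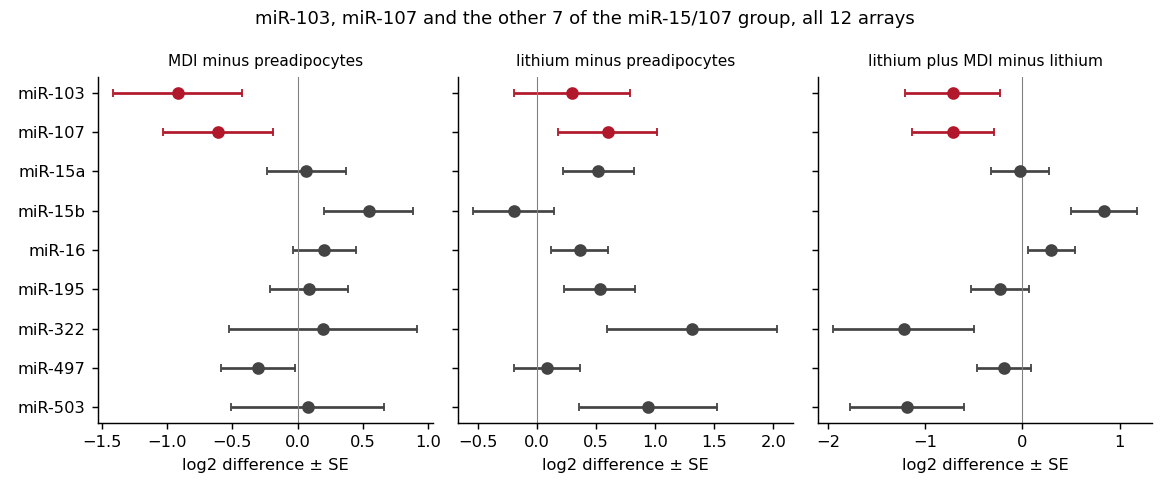
Log2 differences ± SE from limma on all 12 arrays for miR-103 and miR-107 (red) and the other 7 miRNAs that share AGCAGC (grey), in MDI minus preadipocytes, lithium minus preadipocytes and lithium plus MDI minus lithium. After MDI miR-103 and miR-107 lie lowest of the 9, and in the last comparison miR-15b lies at the opposite side.

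Other miRNAs linked to insulin action were taken from a list of 20, of which 16 were tested: the let-7 family with miR-98, which restrains insulin signalling, the miR-29 family, miR-143 with miR-145, miR-320 and miR-93. With all arrays limma called none of the 16 in any of the 6 tests. After MDI 7 of 16 had positive differences (median -0.13, against 0.10 for all tested miRNAs), and under lithium 7 of 16 (median -0.20, against -0.07). In lithium plus MDI against lithium 14 of 16 were positive (median 0.56, against 0.39). Without lithium array 1, let-7e fell by 1.57 and let-7i by 1.06 under lithium (adjusted p 0.0145 and 0.0428, against 0.114 and 0.110 with all arrays), which is 2 of 16 where 7.01% of all tested miRNAs were called lower. In the same fit let-7d rose by 1.09, let-7e by 1.29, miR-29a by 0.98 and miR-29b by 1.25 after MDI in lithium-treated cells (adjusted p 0.0406 to 0.0422, against 0.105 to 0.217 with all arrays), which is 4 of 16 where 13.4% of all tested miRNAs were called higher. The directions of these called miRNAs are opposite to those of miR-103 and miR-107 in the same fit. The list was not uniform in that fit, as 6 of 16 had positive differences under lithium (up to 0.56). After MDI in lithium-treated cells 14 of 16 were positive, and the lowest of the list lay at -0.91.

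By the likeness of their levels over the 12 arrays, each of the pair had the other as its closest of 157 tested miRNAs. Next came miR-148a, a miRNA reported to promote fat cell differentiation, at r = 0.887 with miR-103 and 0.909 with miR-107, and miR-365, encoded beside a miR-193 gene, at 0.827 and 0.875. After these came miR-10b, of the Hoxd cluster, for miR-103 (0.743) and miR-192 for miR-107 (0.824). Over the 10 arrays without lithium arrays 2 and 3 these values changed unequally. They were 0.707 and 0.760 for miR-148a, 0.491 and 0.586 for miR-365 and 0.920 for miR-10b, while miR-192, at or near the floor of -4.97 on the other arrays, had -0.180. All points share their array's scaling, and the values are descriptions with no test. miR-148a read -2.33, -0.64 and -0.61 on lithium arrays 1 to 3, the same split as miR-103 and miR-107. Its other arrays ran from -2.77 to -1.36.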

How the data were processed

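RNA (0.5 ug, Cy3-labelled) was measured on Agilent mouse miRNA arrays. The deposited scanner files give each spot's intensity, background-subtracted by Agilent Feature Extraction (version 10.5.1.1 per the file headers, 9.5.3 per the submitters' processing notes) and not normalized between arrays. The authors' deposited value table is on a log2 scale by its fit to the scanner's signal (r at least 0.996); its steps are not given in the sources used here, so it served only as an alternative. Column medians ran from 0.00175 to 0.0958.

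Outlier spots were left out and spots averaged per probe. Arrays were divided by their 75th percentile over 181 probes detected on all arrays, 4 of them miR-103 or miR-107 probes, floored at the 5th percentile of well-above-background values (-4.97 on the log2 scale) and logged. A miRNA took its brightest probe, and was tested if detected on all 3 arrays of a group (157 of 611). limma 3.58.1 in R 4.3.3 was fitted to 4 group means on all 12 arrays, two-sided, with Benjamini-Hochberg adjustment over the 157 and a threshold of 0.05, and was tested on simulated data. scipy 1.17.1 gave the permutation tests. Named are both members, tested miRNAs of the AGCAGC list, called ones of the insulin-linked list and the 3 others most correlated with each member. miR-466f-3p was added for lithium array 1, after seeing the data. The members, lists and alternatives were chosen with earlier results of these data known. Precision is limited by the number of arrays, which have no read depth.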

Additional observations from a re-analysis of the deposited data

How the results depend on the processing

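Of 360 other settings for the pair's group differences, spacing and correlation, 317 kept direction and side of the threshold. Many left the compared values unchanged, which fixed the direction. Log2 differences are given for miR-103, then miR-107. After MDI both also passed with all mouse probes as the base of the percentile (-1.73, -1.42), without scaling (-1.82, -1.51), with array weights (-1.13, -0.80) and without the 3 arrays that stood apart (-0.99, -0.72). That setting, the percentile without the miR-103 and miR-107 probes, the pair's spacing on slide 2 alone and their correlation without lithium arrays 2 and 3 were added after seeing the data. All tested miRNAs had medians of -0.64 and -0.70 with the first pair of settings, and relative to them miR-103 lay at -1.09 and -1.12 and miR-107 at -0.78 and -0.81, against -1.02 and -0.71 in the main setting. Lithium minus preadipocytes passed with array weights (0.85, 1.02) and without the 3 arrays (0.99, 1.13), and turned negative with all mouse probes as the base of the percentile (-0.60, -0.30) and without scaling (-0.39, -0.095), where all tested miRNAs had medians of -0.90 and -0.69. Lithium plus MDI minus lithium passed with array weights (-1.42, -1.30) and without the 3 arrays (-1.59, -1.44). Lithium plus MDI minus preadipocytes passed for miR-103 with all mouse probes as the base of the percentile (-1.47), where all tested miRNAs had a median of -0.65. It turned positive with the slide as a block (0.15, 0.20). For none of these passes is the share of all 157 tested miRNAs called in the same setting given here. Counts over the other settings reached 62 after MDI, 100 under lithium, 119 after MDI induction of lithium-treated cells and 66 in the last comparison. The passes of miR-103 and miR-107 may therefore be near the background of their settings. The interaction of miR-103 turned negative with quantile normalization (-0.27), normexp (-0.044), the total signal per miRNA (-0.020), the authors' deposited table (-0.50), the slide block (-0.18), array weights (-0.29) and without the 3 arrays (-0.60). That of miR-107 turned positive with all mouse probes as the base of the percentile (0.56) and without scaling (0.77). The cause of these changes was not tested. limma's array weights stopped before their convergence tolerance was reached.

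Leaving out 1 array at a time gave, for miR-103 and then miR-107, -1.11 to -0.80 and -0.72 to -0.50 after MDI, -0.19 to 1.07 and 0.20 to 1.23 for lithium, -1.49 to -0.23 and -1.35 to -0.32 for lithium plus MDI minus lithium, 0.38 to 0.69 and 0.38 to 0.60 against MDI, -0.52 to -0.37 and -0.22 to -0.02 against preadipocytes, and -0.57 to 0.69 and -0.74 to 0.29 for the interaction. The interaction of miR-107 was positive without lithium array 2 or 3, preadipocyte array 3 or MDI array 1. The F of the pair's spacing ran from 1.57 to 5.76.

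Over all tested miRNAs the count past the threshold was 5 after MDI and 10 for lithium, with 0 to 62 and 0 to 100 over the other settings. It was 0 for lithium plus MDI against lithium (0 to 119) and against MDI (0 to 22), 2 against preadipocytes (0 to 66) and 0 for the interaction (0 to 82). The labels do not say whether the replicate numbers pair the arrays, and the values do not settle it. Same-numbered arrays' deviations correlated at r from -0.48 to 0.47, over 0.1 in 9 of 18 pairs. Of 12 arrays, 6 matched their own number best. With the replicate block the differences of miR-103 (-0.92 after MDI) and miR-107 (-0.61) were the same with no call changed, and 16 miRNAs passed for lithium plus MDI against lithium and 4 for the interaction.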
